A study of Mus musculus with 16 samples.

Results

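The 37 autophagy and lysosome genes described here were taken by symbol from the 51912 genes of a liver count table, and each symbol matched 1 gene. They comprise 21 genes of the autophagy machinery and its cargo receptors, the transcription factor genes Tfeb and Tfe3, and 14 lysosomal genes, of which 6 encode membrane or proton pump proteins and 8 encode proteins of the lumen. All 37 had enough counts to be tested, as did 14920 genes in all. Poly-A enriched liver RNA came from 16 male mice, 1 library each. From 10 weeks of age they were fed either the control (Control AA) diet or one with little isoleucine, an essential branched-chain amino acid (Low Ile), for 3 weeks, and they were 13 weeks old at harvest. Housing was at about 22 °C for every group. Livers were taken after an overnight fast of 16 h or after refeeding, whose length is not given in the sources used here, so that there were 4 groups of 4: control fasted, low isoleucine fasted, control refed and low isoleucine refed. The labels name no strain and no genetic change. A single number (1, 2, 7 or 9) stands in the labels of all libraries of a group, and what it marks cannot be told apart from diet and feeding state.

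Autophagy encloses cell contents in a double membrane and delivers them to the lysosome, where acid hydrolases break them down. The ULK1 kinase complex starts the process, a phosphatidylinositol 3-kinase complex marks the site where the membrane forms, and conjugating enzymes attach proteins of the Atg8 family (LC3 and GABARAP) to the membrane. Receptors such as p62 bring cargo to the Atg8 proteins, and TFEB and TFE3 activate lysosomal genes from the nucleus. In liver, autophagy is known to rise in fasting, when it supplies amino acids and lipids, and to be held back after a meal by insulin and by amino acids acting through mTORC1. These measurements are of RNA levels and hold no measure of autophagic flux or of protein.

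Averaged over the diets, 12 of the 21 autophagy genes (57.1%) fell in refed liver, 2 rose and 7 did not pass, where 16.5% of all genes tested fell and 16.4% rose. Of the 14 lysosomal genes 3 fell (Npc1, Lamp2 and Lipa; 21.4%, near the share of all genes) and 11 did not pass, and neither Tfeb nor Tfe3 passed. The difference between the autophagy and the lysosomal genes was not tested. The largest falls were those of Wipi1, which was 2.55-fold lower after refeeding, Gabarapl1 (2.04-fold), Ulk1 (1.90-fold) and Map1lc3b (1.78-fold). No member passed in any comparison of the diets. A call here is an adjusted p under 0.05 in edgeR's quasi-likelihood F test, adjusted by Benjamini-Hochberg over all 14920 genes.

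The counts stand against a broad change of the liver transcriptome. In the averaged comparison the median log2 fold change was 0.02 over all genes, -0.29 over the autophagy genes and -0.07 over the lysosomal genes. On the control diet 11 of 37 members were lower and 1 higher, beside 8.2% and 8.91% of all genes, and on the low isoleucine diet 14 were lower and 0 higher, beside 11.8% and 9.6%. The lower calls numbered 9 of 21 autophagy genes and 2 of 14 lysosomal genes on the control diet, and 11 and 3 on the low isoleucine diet. The autophagy medians were -0.22 and -0.40, the lysosomal medians -0.05 and -0.11. All 11 members lower on the control diet were also lower on the low isoleucine diet, which is 78.6% of the 14 called there. The members were chosen with earlier results of these libraries known, so no test over the list is given.

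Total counts ran from 24368616 to 34002928 per library. A first principal component with 28.6% of the variance placed the 8 fasted libraries between -36.4 and -25.4 and the 8 refed libraries between 13.7 and 42.8. Hepatocyte markers were high throughout, at summed levels of 78586 to 135628 CPM over the 9 tested. Control refed library 4 stood apart when lists were ranked by their mean log2(CPM + 1). It had the highest level of the 16 libraries in the marker lists of Kupffer cells, endothelial cells, stellate cells, lymphocytes and neutrophils. By the same measure it had the lowest in the hepatocyte list and in the autophagy list. The lowest summed hepatocyte level, 78586 CPM, was instead in a control fasted library. The mean log2(CPM + 1) of the 21 autophagy genes was 5.46 there and 5.66 to 5.86 in the other control refed libraries. The summed level of the 13 Kupffer cell markers was 591 CPM in that library; over the groups it ran from 397 to 512 CPM in control fasted, 247 to 355 in low Ile fasted, 294 to 591 in control refed and 236 to 422 in low Ile refed liver. None of the 13 was called between feeding states, with a median log2 fold change of -0.05 in the averaged comparison. In that comparison the 8 endothelial markers had a median of -0.31, with 7 negative and 0 called. The 9 hepatocyte markers had a median of -0.19, and Apob and Hnf4a were called lower (-0.37 and -0.55, adjusted p = 0.00524 and 0.00161). Of 8 stellate cell markers Lrat was called higher (0.62, adjusted p = 0.00526) and Reln lower (-0.53, adjusted p = 0.00335). No lymphocyte or neutrophil marker passed there. The called markers are named after their values were seen, and the part of these markers in the members' differences was not tested. Fewer cells of a type and less RNA per cell cannot be told apart in these bulk libraries.

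**Figure D1:**
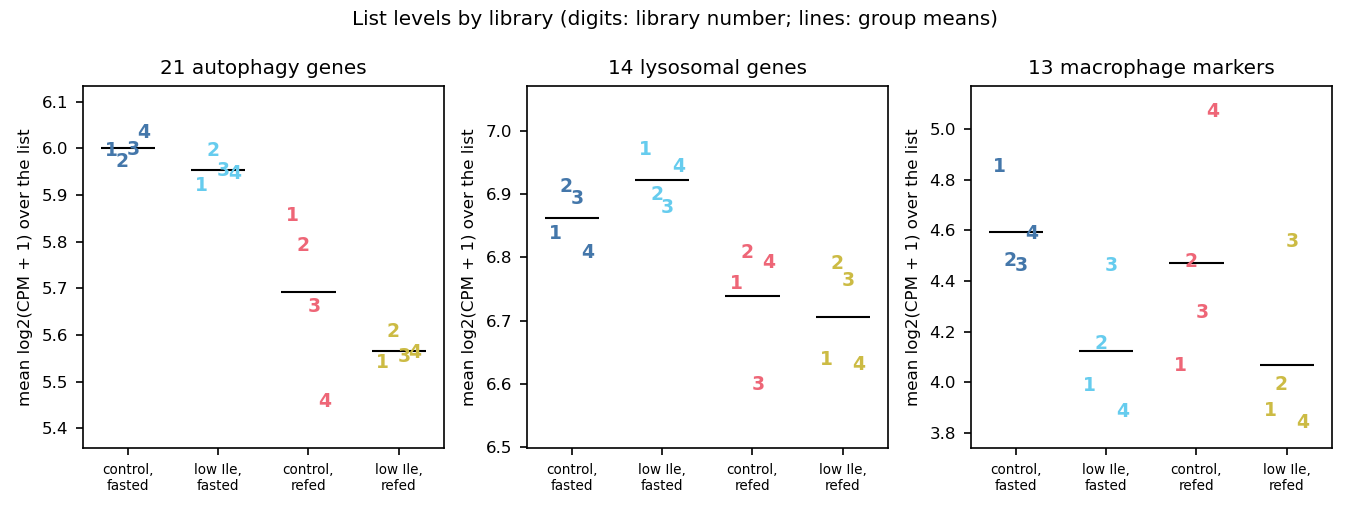
Mean log2(CPM + 1) of 21 autophagy genes, 14 lysosomal genes and 13 macrophage markers in each of the 16 libraries, by group, with the library number as the symbol and a line at the group mean (vertical axes do not start at 0). The autophagy genes of the fasted libraries lie above those of every refed library, and control refed library 4 is the lowest in autophagy genes (5.46) and the highest in macrophage markers.

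Promoter sequences were read for the members to show the letters that TFEB and TFE3 are known to bind. The RefSeq windows, on build GRCm38.p6, cover 250 bases before and 50 after a gene's start and matched 30 of the 37 members. No window was matched for Becn1, Pik3c3, Atg12, Atg16l1, Map1lc3a, Npc1 and Ctsb. The counts below thus leave out Pik3c3, Atg12 and Npc1, which fell in the averaged comparison, and Atg16l1, which rose. The motif TCACGTGA, the core of the element described for lysosomal gene promoters, was searched on both strands and contains the shorter E-box CACGTG. It lay in the window of 7 of the 30 members (23.3%: Atg3, Mcoln1, Atp6v0d1, Atp6v1a, Ctsa, Ctsd and Gla), against 1.13% of the 27025 genes with a window. CACGTG lay in 13 of the 30 (43.3%) and in 8.09% of all genes. None of the 12 matched members that fell in refed liver held TCACGTGA, whereas 6 of the 17 that did not pass held it, as did Atg3, the only matched member that rose. These 6 are all lysosomal genes, while the 12 that fell are autophagy genes apart from Lamp2 and Lipa. Role and feeding call thus go together in these counts, and a link between motif and call was not tested. CACGTG lay in Atg14 and Bnip3 among the 12 that fell, and in 10 of the 17. The forkhead motif GTAAACA was in none of the 30 windows, against 4.05% of all genes. A match is a stretch of letters and not a binding site, and no match says only that these letters are absent from this window.

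The 250 bases before the start follow, 5′ to 3′ on the gene's strand, with TCACGTGA and CACGTG in capitals. The first 4 are members that hold TCACGTGA, taken in the order of their adjusted p in the averaged feeding comparison. Wipi1 and Gabarapl1, chosen after their values were seen, are the members with the largest falls and hold neither motif.
Atg3 (chr16:45158579-45158828, plus strand): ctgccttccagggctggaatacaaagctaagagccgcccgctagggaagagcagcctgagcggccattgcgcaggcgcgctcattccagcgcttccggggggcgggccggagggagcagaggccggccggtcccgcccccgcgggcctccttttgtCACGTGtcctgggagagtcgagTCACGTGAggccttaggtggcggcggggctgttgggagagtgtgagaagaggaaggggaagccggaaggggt
Mcoln1 (chr8:3500269-3500518, plus strand): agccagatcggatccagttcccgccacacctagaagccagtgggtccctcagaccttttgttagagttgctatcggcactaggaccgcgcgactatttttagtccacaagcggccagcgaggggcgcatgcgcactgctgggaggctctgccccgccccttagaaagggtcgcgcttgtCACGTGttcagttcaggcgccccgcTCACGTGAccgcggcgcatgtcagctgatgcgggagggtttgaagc
Atp6v1a (chr16:44139260-44139509, minus strand): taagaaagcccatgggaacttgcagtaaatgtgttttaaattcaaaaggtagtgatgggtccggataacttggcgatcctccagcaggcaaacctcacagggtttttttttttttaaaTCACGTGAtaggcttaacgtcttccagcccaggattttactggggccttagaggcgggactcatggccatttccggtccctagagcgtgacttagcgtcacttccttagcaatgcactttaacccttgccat
Ctsa (chr2:164833523-164833772, plus strand): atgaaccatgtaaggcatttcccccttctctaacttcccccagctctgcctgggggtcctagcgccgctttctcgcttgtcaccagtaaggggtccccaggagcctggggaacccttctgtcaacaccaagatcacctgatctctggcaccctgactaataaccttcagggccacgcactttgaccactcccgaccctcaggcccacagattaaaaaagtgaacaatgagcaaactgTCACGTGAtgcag
Wipi1 (chr11:109611390-109611639, minus strand): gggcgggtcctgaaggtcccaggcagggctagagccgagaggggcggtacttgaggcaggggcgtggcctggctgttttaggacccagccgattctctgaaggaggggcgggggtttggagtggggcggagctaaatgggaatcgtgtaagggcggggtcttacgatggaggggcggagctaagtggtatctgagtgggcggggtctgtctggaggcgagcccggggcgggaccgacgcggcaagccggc
Gabarapl1 (chr6:129532942-129533191, plus strand): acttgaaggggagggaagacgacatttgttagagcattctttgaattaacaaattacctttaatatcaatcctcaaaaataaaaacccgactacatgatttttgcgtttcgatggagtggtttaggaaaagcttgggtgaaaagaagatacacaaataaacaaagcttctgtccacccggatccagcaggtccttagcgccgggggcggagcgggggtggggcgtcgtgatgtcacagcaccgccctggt

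Levels between genes were compared per kilobase of merged exons in GENCODE M21, since longer transcripts give more counts. Lamp1, an abundant glycoprotein of the lysosomal membrane, had the highest level of the 37 at 168 CPM per kilobase over the 16 libraries, followed by Bnip3 (124), Gabarapl1 (121), Ctsl (113) and Ctsd (113). Tfeb had the lowest at 0.492, and Wipi1, the gene with the largest fall, stood at 2.21. The median was 24.7 CPM per kilobase over the lysosomal genes, 8.56 over the autophagy genes and 1.46 over the pair of transcription factors. The sources used here give no build for the deposited counts, so these lengths hold for that annotation alone.

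**Figure D2:**
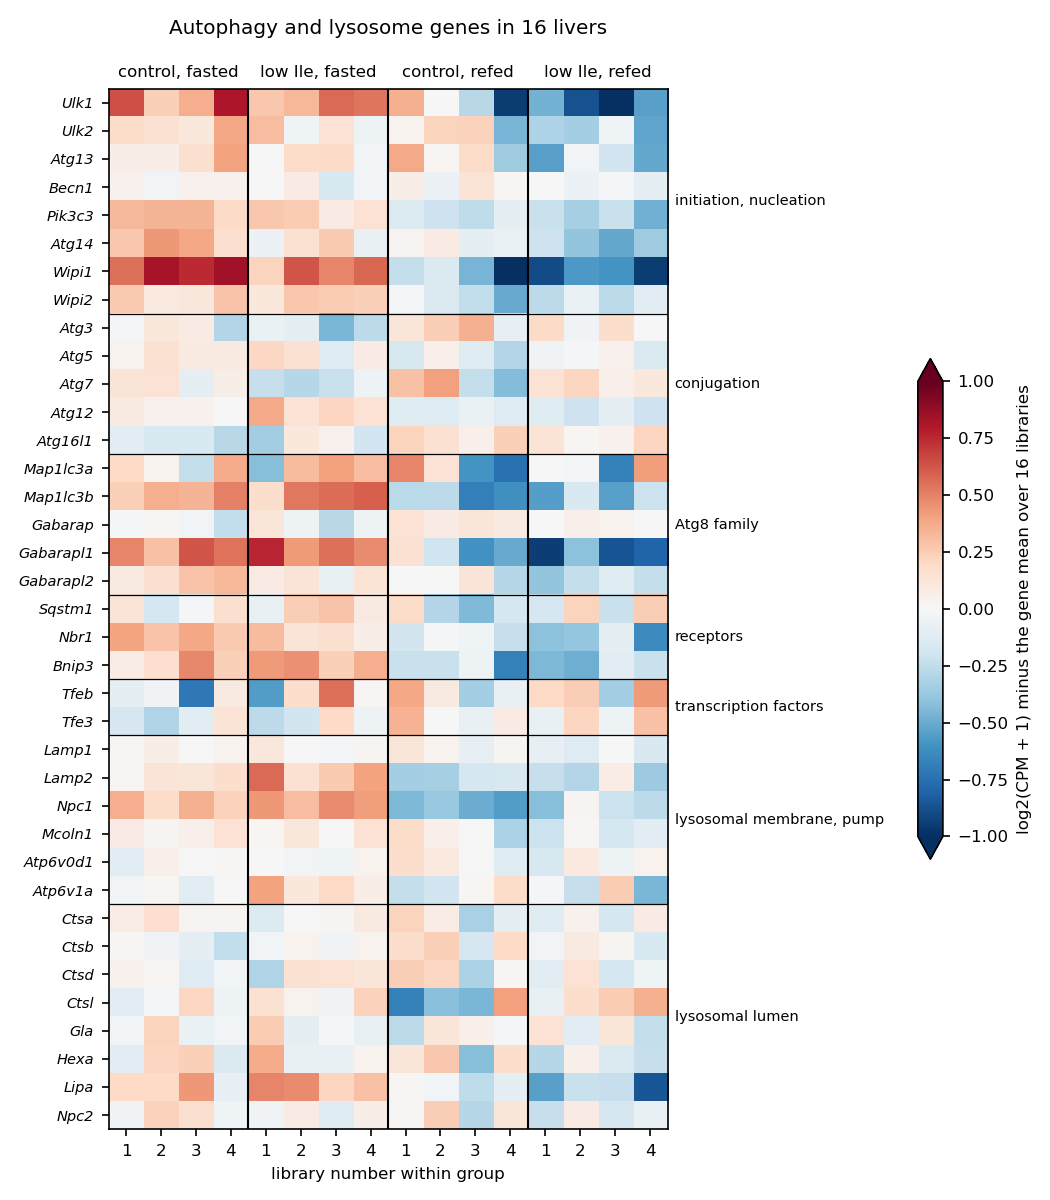
Level of each of the 37 members (rows, by role) in each of the 16 libraries (columns, by group), as log2(CPM + 1) minus the gene's mean over the 16 libraries, with colours that saturate at 1 in either direction. The fasted columns of Wipi1, Map1lc3b, Gabarapl1 and Npc1 are all red and most of their refed columns are blue, while in the lysosomal lumen Lipa comes nearest to such a division.

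Genes of initiation and nucleation held 6 of the 12 autophagy genes that fell in the averaged comparison. All levels are CPM after TMM scaling, that is, counts scaled by library size and composition, given for libraries 1 to 4 in turn, and differences are refed minus fasted on the log2 scale. Ulk1, the kinase that starts autophagosome formation (chromosome 5, 110784488 to 110810097 in GENCODE M21, build GRCm38), stood at 80.8, 60.7, 66.5 and 90.7 CPM in control fasted, 62.3, 65.1, 76.7 and 74.8 in low Ile fasted, 66.2, 51.7, 42.2 and 26.1 in control refed and 36.8, 27.7, 25.1 and 35.0 in low Ile refed liver. Fasted and refed libraries overlapped on the control diet, where refed library 1 was within the fasted range, and did not overlap on the low isoleucine diet. Ulk1 fell by 0.68 (SE 0.217, adjusted p = 0.0399) on the control and by 1.16 (SE 0.219, adjusted p = 0.00136) on the low isoleucine diet. The control diet call was lost without any 1 of 8 libraries (control fasted 1, 3 and 4, control refed 2, 3 and 4, low isoleucine fasted 2 and 4), at adjusted p of 0.0503 to 0.117 and log2 differences of -0.74 to -0.49.

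Wipi1, which binds the lipid made by the phosphatidylinositol 3-kinase (chromosome 11, 109573331 to 109611967), stood at 13.3, 16.2, 15.3 and 16.4 CPM in control fasted, 10.4, 14.1, 12.6 and 13.5 in low Ile fasted, 7.24, 7.79, 6.03 and 3.82 in control refed and 4.23, 5.52, 5.42 and 4.05 in low Ile refed liver. Every fasted library was above every refed library, whichever the diet. The fall was 2.46-fold on the control diet (log2 difference -1.30, SE 0.188, adjusted p = 0.000219) and 2.63-fold on the low isoleucine diet (-1.40, SE 0.189, adjusted p = 8.14e-05). Its relative Wipi2, which recruits the conjugation machinery to the membrane, stood at 81.5, 72.3, 73.4 and 82.7 CPM in control fasted, 73.0, 81.6, 80.8 and 80.0 in low Ile fasted, 66.9, 61.1, 56.9 and 47.4 in control refed and 56.4, 64.5, 56.0 and 62.6 in low Ile refed liver. Here too no refed library reached a fasted one. Wipi2 fell by 0.42 (SE 0.104, adjusted p = 0.0114) and 0.40 (SE 0.104, adjusted p = 0.0116) on the control and the low isoleucine diet. Both calls were lost with scaling by library size alone, at adjusted p of 0.057 and 0.068.

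The catalytic subunit of the phosphatidylinositol 3-kinase complex is Pik3c3, and Atg14 is the subunit that directs the complex to autophagy. Pik3c3 stood at 18.3, 18.5, 18.5 and 16.6 CPM in control fasted, 17.6, 17.4, 15.3 and 16.1 in low Ile fasted, 13.0, 12.3, 11.9 and 13.4 in control refed and 12.2, 11.2, 12.2 and 10.0 in low Ile refed liver. Its fasted and refed libraries did not overlap, and it fell by 0.50 (SE 0.0968, adjusted p = 0.00198) on the control diet and by 0.54 (SE 0.0968, adjusted p = 0.000914) on the low isoleucine diet. Atg14 stood at 16.5, 18.6, 18 and 15.2 CPM in control fasted, 13.0, 15.1, 16.4 and 12.8 in low Ile fasted, 13.8, 14.4, 12.5 and 12.9 in control refed and 11.5, 10.0, 9.16 and 10.4 in low Ile refed liver. Within each diet the fasted libraries were above the refed ones, while over both diets they overlapped. Atg14 fell by 0.35 (SE 0.113, adjusted p = 0.0426) and 0.48 (SE 0.114, adjusted p = 0.00626) on the control and the low isoleucine diet. The control diet call was lost without any 1 of 9 libraries (control fasted 1, 2 and 3, the 4 control refed, low isoleucine fasted 2 and low isoleucine refed 2), at adjusted p of 0.0519 to 0.122. Scaling by library size alone lost the low isoleucine call of Atg14 (adjusted p = 0.0637).

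The other subunit of that complex on the list, Becn1, stayed within 43.6 to 53.5 CPM over the 16 libraries, with an averaged log2 difference of 0.00 (SE 0.0560, adjusted p = 1.00). Ulk2, a second kinase of the ULK family, had group means of 51.2, 47.3, 45.2 and 35.8 CPM (SD 4.56, 5.83, 9.51 and 5.22, n = 4) in control fasted, low isoleucine fasted, control refed and low isoleucine refed liver. In the fit to all libraries it passed in the averaged comparison alone, where it fell by 0.29 (SE 0.105, adjusted p = 0.0415). That call was lost without any 1 of 10 libraries, at adjusted p of 0.0503 to 0.0857, and its adjusted p is the highest of the 15. On the low isoleucine diet Ulk2 passed in 3 alternatives, with only the compared groups (-0.41, adjusted p = 0.0467), without control refed library 4 (-0.41, adjusted p = 0.0187) and without low isoleucine refed library 3 (-0.50, adjusted p = 0.0314). Atg13, a scaffold of the ULK1 complex, had means of 41.1, 38.6, 38.3 and 29.1 CPM (SD 4.80, 3.17, 8.15 and 5.27, n = 4) and an averaged difference of -0.25 (adjusted p = 0.0808). It passed in that comparison without control refed library 1 (-0.31, adjusted p = 0.0309) or low isoleucine refed library 2 (-0.31, adjusted p = 0.0408). On the low isoleucine diet Atg13 passed with only the compared groups (-0.42, adjusted p = 0.0476), without control refed library 4 (-0.42, adjusted p = 0.0272) and without low isoleucine refed library 2 (-0.51, adjusted p = 0.0372).

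The 5 conjugation genes did not move together. Atg12, a ubiquitin-like protein that is joined to Atg5, stood at 28.5, 27.6, 27.6 and 26.9 CPM in control fasted, 35.1, 29.7, 31.2 and 29.6 in low Ile fasted, 24.5, 24.4, 25.5 and 24.4 in control refed and 24.5, 23.0, 25.1 and 23.1 in low Ile refed liver. No refed library reached a fasted one. Atg12 fell by 0.39 on the low isoleucine diet (SE 0.0803, adjusted p = 0.00227) and its difference on the control diet was -0.16 (SE 0.0805, adjusted p = 0.190). Its call in the averaged comparison was lost with scaling by library size alone (adjusted p = 0.0637). Atg16l1, which places the conjugating complex on the membrane, stood at 31.6, 30.7, 30.7 and 28.1 CPM in control fasted, 26.7, 36.8, 35.3 and 29.8 in low Ile fasted, 40.1, 38.1, 35.4 and 40.6 in control refed and 37.8, 34.7, 35.3 and 39.8 in low Ile refed liver. Its refed libraries were above the fasted ones on the control diet and overlapped them on the low isoleucine diet. Atg16l1 rose by 0.35 on the control diet (SE 0.103, adjusted p = 0.0261), with a difference of 0.20 on the low isoleucine diet (SE 0.102, adjusted p = 0.188). The control diet call was lost without any 1 of control fasted 2, 3 and 4 and control refed 1 and 4, at adjusted p of 0.0515 to 0.0801. The averaged rise was 0.27 (SE 0.0725, adjusted p = 0.00728).

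Atg3, the enzyme that attaches Atg8 proteins to lipid, stood at 77.4, 85.0, 82.9 and 63.9 CPM in control fasted, 75.0, 73.7, 56.9 and 65.4 in low Ile fasted, 85.5, 93.3, 101 and 74.2 in control refed and 89.9, 76.7, 88.6 and 78.3 in low Ile refed liver. The feeding states overlapped on the control diet and did not on the low isoleucine diet. Atg3 rose in the averaged comparison alone, by 0.25 (SE 0.0867, adjusted p = 0.0372), and the call was lost without any 1 of 8 libraries (control fasted 1 and 4, control refed 2 and 3, low isoleucine fasted 3 and 4, low isoleucine refed 1 and 3), at adjusted p of 0.0598 to 0.0806. With scaling by library size alone Atg3 also passed as higher on the low isoleucine diet (0.41, adjusted p = 0.00842). Atg7, the activating enzyme of both conjugation paths, had group means of 36.3, 30.2, 35.9 and 38.1 CPM in the same order as above (SD 2.68, 2.23, 10.2 and 1.89, n = 4). With TMM scaling of all libraries Atg7 did not pass. On the low isoleucine diet it passed as higher in refed liver in 2 alternatives. These were scaling by library size alone (0.45, adjusted p = 0.0394) and a fit to only the compared groups (0.32, adjusted p = 0.0350). Atg5, the partner of Atg12, had means of 43.0, 42.8, 36.9 and 39.2 CPM (SD 1.52, 4.28, 3.80 and 2.12, n = 4), with an averaged difference of -0.17 (adjusted p = 0.0579). It passed without low isoleucine fasted library 3 (-0.21, adjusted p = 0.0231) or control refed library 2 (-0.21, adjusted p = 0.0237).

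The products of the 5 genes of the Atg8 family coat the forming membrane and bind receptors. In the averaged comparison 3 of the 5 fell (60.0%, beside 16.5% of all genes), and Gabarap and Map1lc3a did not pass. Gabarapl1 (chromosome 6, 129533160 to 129542346) stood at 316, 275, 349 and 327 CPM in control fasted, 381, 303, 329 and 312 in low Ile fasted, 250, 196, 147 and 158 in control refed and 117, 169, 123 and 129 in low Ile refed liver. No refed library reached a fasted one. The fall was 1.69-fold on the control diet (log2 difference -0.76, SE 0.160, adjusted p = 0.00386) and 2.46-fold on the low isoleucine diet (-1.30, SE 0.161, adjusted p = 3.56e-05). Map1lc3b, which encodes the LC3 protein commonly used as an autophagosome marker (chromosome 8, 121590361 to 121598760), stood at 121, 131, 130 and 145 CPM in control fasted, 115, 148, 150 and 155 in low Ile fasted, 84.3, 84.7, 63.0 and 66.2 in control refed and 69.2, 91.6, 69.8 and 87.6 in low Ile refed liver. Its feeding states did not overlap either. It fell by 0.82 (SE 0.134, adjusted p = 0.000552) and 0.84 (SE 0.134, adjusted p = 0.000358) on the control and the low isoleucine diet.

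Gabarapl2, also called GATE-16, stood at 52.9, 55.7, 60.9 and 62.8 CPM in control fasted, 52.7, 54.2, 47.1 and 54.7 in low Ile fasted, 49.7, 49.7, 54.4 and 40.6 in control refed and 37.5, 42.0, 45.5 and 41.9 in low Ile refed liver. The feeding states overlapped on the control diet and not on the low isoleucine diet. It fell by 0.32 on the low isoleucine diet (SE 0.102, adjusted p = 0.0326), and its difference on the control diet was -0.26 (SE 0.102, adjusted p = 0.0973). The low isoleucine call was lost without any 1 of libraries 1, 2 and 4 of either low isoleucine group, at adjusted p of 0.0583 to 0.106, while the averaged fall of 0.29 had an adjusted p of 0.00502. Gabarap had group means of 158, 159, 178 and 168 CPM (SD 12.9, 17.9, 3.46 and 2.71, n = 4) and Map1lc3a 19.6, 20.8, 17.0 and 17.9 CPM (SD 3.60, 5.13, 7.31 and 5.56, n = 4), in the order used above. With scaling by library size alone Gabarap passed as higher in refed liver in the averaged comparison (0.24, adjusted p = 0.0130).

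**Figure D3:**
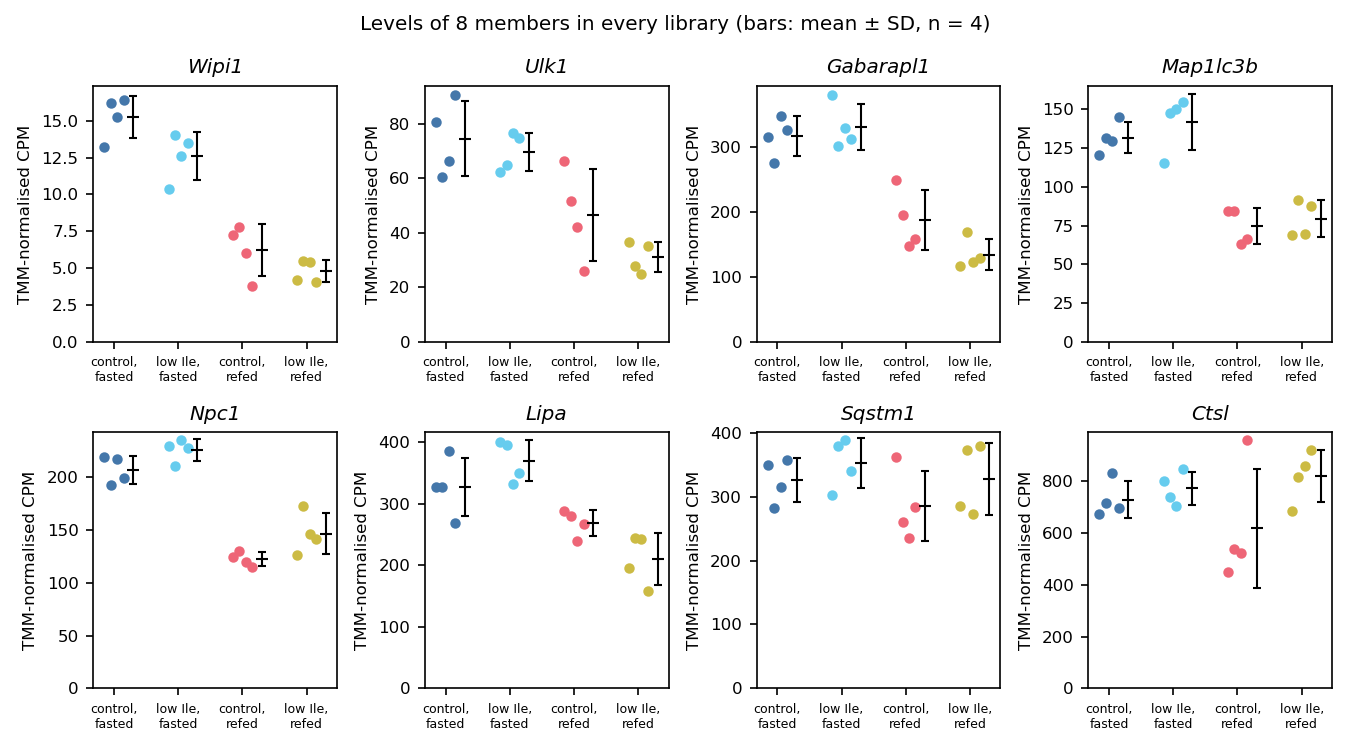
TMM-normalised CPM (vertical axis, from 0) of 8 members in each library of the 4 groups, with mean and SD (n = 4) as bars. Wipi1, Gabarapl1, Map1lc3b and Npc1 have no refed library at the level of a fasted one, the groups of Sqstm1 overlap, and control refed library 4 is the highest Ctsl value at 960 CPM.

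Among the cargo receptors Nbr1 and Bnip3 fell and Sqstm1 did not pass. Nbr1, a receptor for ubiquitinated cargo and peroxisomes, stood at 257, 239, 257 and 235 CPM in control fasted, 245, 214, 219 and 205 in low Ile fasted, 172, 194, 190 and 167 in control refed and 147, 150, 184 and 126 in low Ile refed liver. Its fasted libraries were above its refed libraries, and it fell by 0.45 (SE 0.111, adjusted p = 0.0106) on the control diet and by 0.54 (SE 0.111, adjusted p = 0.00240) on the low isoleucine diet. Bnip3, a mitochondrial protein that marks mitochondria for autophagy, stood at 287, 307, 381 and 323 CPM in control fasted, 367, 375, 322 and 351 in low Ile fasted, 234, 234, 264 and 171 in control refed and 200, 194, 253 and 234 in low Ile refed liver. Again the feeding states did not overlap. It fell by 0.52 (SE 0.136, adjusted p = 0.0136) and 0.68 (SE 0.136, adjusted p = 0.00192) on the control and the low isoleucine diet. The control diet call of Bnip3 was lost with only the compared groups (adjusted p = 0.0501). Sqstm1, which encodes p62, a receptor that is itself degraded by autophagy, had group means of 326, 353, 285 and 327 CPM (SD 34.2, 39.4, 55.1 and 56.4, n = 4), and its averaged difference was -0.15 (SE 0.106, adjusted p = 0.306).

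Tfeb and Tfe3, which encode the transcription factors of the lysosomal programme, did not pass between feeding states with TMM scaling. With scaling by library size alone Tfe3 passed as higher in refed liver in the averaged comparison (0.31, adjusted p = 0.0486). Tfeb had group means of 2.30, 2.95, 2.79 and 3.12 CPM (SD 0.732, 1.19, 0.801 and 0.863, n = 4) and Tfe3 20.8, 21.4, 24 and 24.1 CPM (SD 2.83, 3.26, 3.28 and 3.20, n = 4). These factors are known to be controlled by their phosphorylation and place in the cell, which RNA levels do not show.

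In the lysosomal membrane 2 of 6 genes (33.3%) fell on each diet, beside 8.2% of all genes on the control and 11.8% on the low isoleucine diet. Npc1, which exports cholesterol from the lysosome (chromosome 18, 12189692 to 12236400), stood at 219, 192, 217 and 199 CPM in control fasted, 229, 211, 235 and 227 in low Ile fasted, 124, 130, 120 and 115 in control refed and 126, 173, 146 and 141 in low Ile refed liver. The feeding states did not overlap. It fell 1.69-fold on the control diet (log2 difference -0.76, SE 0.101, adjusted p = 0.000121) and 1.54-fold on the low isoleucine diet (-0.62, SE 0.101, adjusted p = 0.000387). Lamp2, a membrane glycoprotein needed for fusion of autophagosomes and lysosomes, stood at 519, 559, 556 and 579 CPM in control fasted, 757, 568, 613 and 675 in low Ile fasted, 404, 406, 452 and 458 in control refed and 435, 418, 538 and 397 in low Ile refed liver. Within each diet its fasted libraries were above the refed ones, with low isoleucine refed library 3 within the control fasted range. Lamp2 fell by 0.36 (SE 0.116, adjusted p = 0.0408) and 0.55 (SE 0.117, adjusted p = 0.00308) on the control and the low isoleucine diet. The control diet call was lost without any 1 of 10 libraries (the 4 control fasted, control refed 1, 2 and 3, low isoleucine fasted 4, low isoleucine refed 1 and 2), at adjusted p of 0.0503 to 0.0986.

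The other 4 membrane genes did not pass on either diet. Lamp1 had group means of 458, 458, 457 and 421 CPM (SD 8.15, 17.8, 26.3 and 19.4, n = 4). Mcoln1, a calcium channel of the lysosome, had means of 26.8, 26.7, 25.2 and 23.3 CPM (SD 0.982, 1.37, 3.71 and 1.66, n = 4). The proton pump subunits Atp6v0d1 and Atp6v1a had means of 48.8, 48.8, 50.6 and 48.5 CPM (SD 2.22, 1.20, 4.51 and 3.70, n = 4) and 41.1, 48.3, 40.5 and 39.4 CPM (SD 1.57, 5.36, 5.71 and 8.58, n = 4). Without low isoleucine refed library 3, Atp6v1a passed as lower in refed liver on that diet (-0.43, adjusted p = 0.0286).

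Of the 8 genes of the lysosomal lumen only Lipa passed, in the low isoleucine and the averaged comparison. That share of 12.5% was near the 11.8% of all genes lower on the low isoleucine diet. It was not above the 16.5% lower in the averaged comparison. Lipa, the acid lipase that breaks down cholesteryl esters and triglycerides in the lysosome (chromosome 19, 34492318 to 34527474), stood at 327, 327, 386 and 270 CPM in control fasted, 401, 396, 332 and 351 in low Ile fasted, 288, 280, 239 and 267 in control refed and 196, 245, 243 and 157 in low Ile refed liver. The feeding states overlapped on the control diet and were apart on the low isoleucine diet. Lipa fell 1.76-fold on the low isoleucine diet (log2 difference -0.82, SE 0.143, adjusted p = 0.000756), and its difference on the control diet was -0.29 (SE 0.142, adjusted p = 0.191).

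The other 7 genes of the lumen had averaged log2 differences between -0.11 and 0.10, with adjusted p from 0.362 upward and standard errors up to 0.131. They included the proteases Ctsb, with group means of 442, 471, 510 and 465 CPM (SD 34, 12.9, 62.6 and 32.4, n = 4), and Ctsd, with 259, 271, 274 and 256 CPM (SD 13.7, 38.3, 46.2 and 24.8, n = 4). Ctsa, a protective carboxypeptidase, had means of 109, 104, 103 and 101 CPM (SD 5.31, 6.95, 16.6 and 8.79, n = 4). Hexa, a subunit of beta-hexosaminidase, had means of 33.6, 33.9, 33.5 and 29.0 CPM, and Npc2, which hands cholesterol to Npc1, 50.2, 47.3, 48.7 and 44.4 CPM. Gla, alpha-galactosidase A, was the scarcest of the lumen genes at 4.21, 4.20, 4.02 and 4.07 CPM. Ctsl, an endopeptidase, stood at 672, 715, 832 and 697 CPM in control fasted, 801, 739, 704 and 848 in low Ile fasted, 451, 538, 524 and 960 in control refed and 685, 817, 857 and 921 in low Ile refed liver. Control refed library 4 was the highest of the 16 and the other 3 of its group the lowest. Ctsl did not pass with that library in the fit (-0.24 on the control diet, adjusted p = 0.441) and passed as lower in refed liver without it, on the control diet (-0.54, adjusted p = 0.00677) and in the averaged comparison (-0.23, adjusted p = 0.0394). Macrophage markers were at their highest in the same library, and their part in the Ctsl level was not tested.

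**Figure D4:**
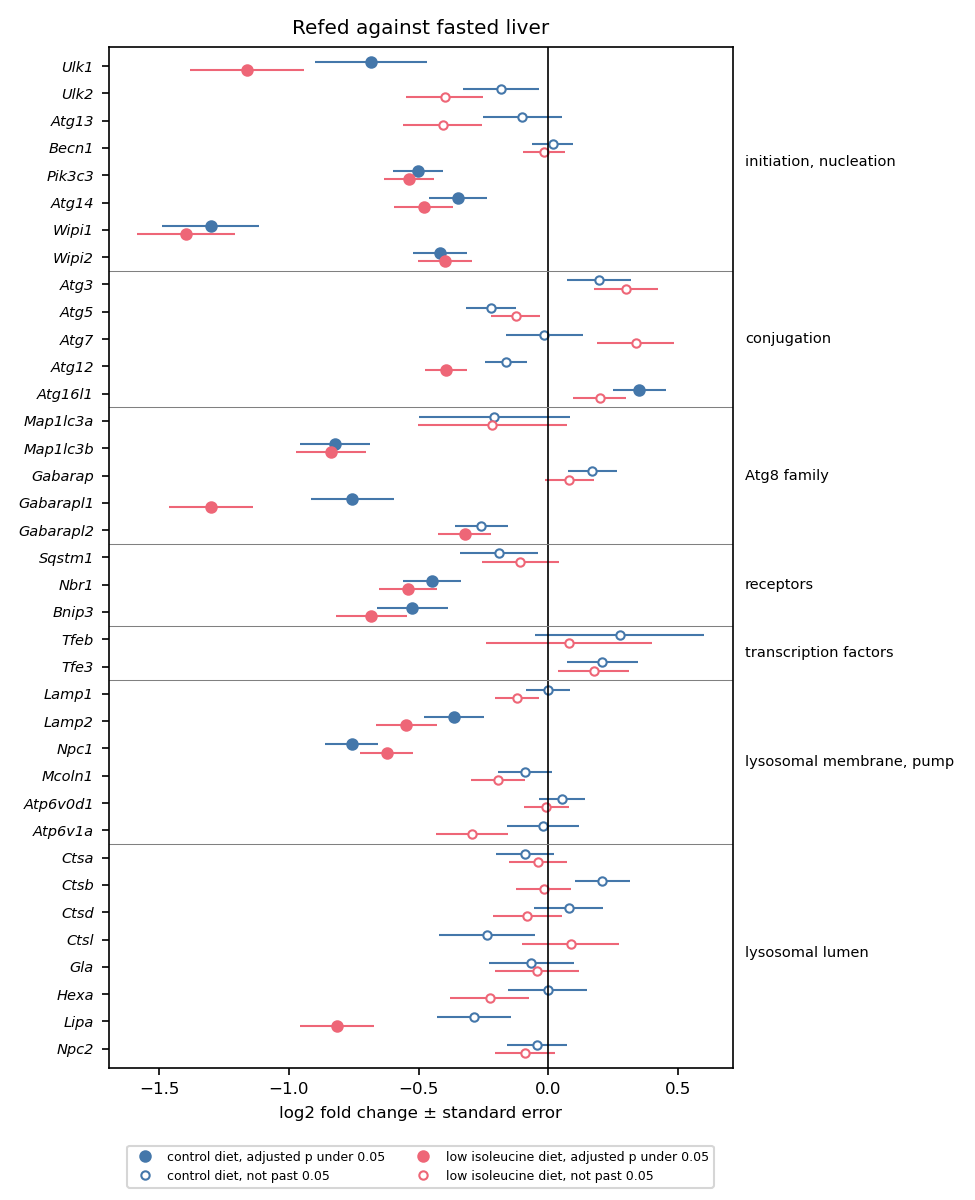
Log2 fold change of refed against fasted liver with its standard error (horizontal axis) for the 37 members by role, in blue for the control and in red for the low isoleucine diet, with filled points for an adjusted p under 0.05. Filled points lie to the left of 0 in 11 and 14 genes and to the right only for Atg16l1 on the control diet, and 1 of the 8 lumen genes is filled.

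The log2 difference between refed and fasted liver was more negative on the low isoleucine than on the control diet in 28 of the 37 members. The same held for 7810 of the 14920 genes tested. Most of the 28 members had not passed on both diets. The test of that difference, the interaction of diet and feeding state, called 0 of 37 members and 0% of all genes with edgeR. At an unadjusted p under 0.05 it held 6.22% of all genes and 2 of 37 members (5.41%), Gabarapl1 (-0.55, SE 0.225, adjusted p = 0.747) and Lipa (-0.53, SE 0.201, adjusted p = 0.706), and neither DESeq2 nor limma-voom called a member. The 3 members lower only on the low isoleucine diet (Atg12, Gabarapl2 and Lipa) are therefore not shown to differ between diets.

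No member passed in the comparison of the low isoleucine with the control diet. In fasted mice 0.771% of all genes were called in either direction and 0 of 37 members, with member log2 differences (low isoleucine minus control) between -0.27 and 0.36. In refed mice it was 0.174% of genes and 0 members, with differences between -0.58 and 0.41, and averaged over feeding states 1.51% of genes and 0 members. At an unadjusted p under 0.05 by edgeR there were 2 of 37 members in fasted mice (5.41%, beside 10.8% of all genes), 10 in refed mice (27.0%, beside 9.76%) and 8 in the averaged comparison (21.6%, beside 14.3%). The number in refed mice was not stable. It was 3 with only the compared groups, 4 without low isoleucine refed library 4 and 11 without control refed library 4. DESeq2 called 0 members in either feeding state and 1 in the averaged comparison (Atg14, -0.32, adjusted p = 0.00976), and limma-voom called 0. The authors' deposited table for each feeding state also held 0 members with an adjusted p under 0.05, with its lowest at 0.353 in fasted and 0.169 in refed mice, both for Atg14.

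The member nearest to a diet call was Atg14. Its low Ile refed libraries all lay under its control refed libraries in the levels printed above, and it had an averaged difference of -0.32 (SE 0.0800, adjusted p = 0.0576), and it passed without low isoleucine fasted library 3 (-0.35, adjusted p = 0.0473). Ulk1 had a difference of -0.58 in refed mice (SE 0.218, adjusted p = 0.407), a comparison in which control refed library 4 gave the lowest control value. Without that library Ulk1 passed as lower on the low isoleucine diet in refed mice (-0.79, adjusted p = 0.0475) and Ctsl passed as higher (0.69, adjusted p = 0.0215). In the averaged comparison Ulk1 (-0.45, adjusted p = 0.0484), Atg14 (-0.34, adjusted p = 0.0404), Wipi1 (-0.42, adjusted p = 0.0375) and Ctsl (0.38, adjusted p = 0.0183) then passed. These alternatives leave out the library with the highest markers of 5 non-hepatocyte cell types. Of the 13 Kupffer cell markers 12 had a negative diet difference in fasted mice and 13 in refed mice, with medians of -0.54 and -0.45, and 0 passed in either. By edgeR 7 had an unadjusted p under 0.05 in fasted mice (53.8%, beside 10.8% of all genes). In refed mice 2 did (15.4%, beside 9.76%). In the averaged diet comparison their median was -0.50 and Clec4f was called lower (-0.54, adjusted p = 0.0461). There 11 of the 13 had an unadjusted p under 0.05 (84.6%, beside 14.3% of all genes). Of 7 lymphocyte markers Cd4 was called lower in fasted mice (-1.76, adjusted p = 0.0287) and in the averaged comparison (-1.44, adjusted p = 0.00656). Its counts are low, since the whole lymphocyte list summed to 4.28 to 5.53 CPM in control fasted and 1.96 to 4.19 CPM in low Ile fasted liver. The part of the Kupffer cell and lymphocyte markers in the diet values of the members was not tested.

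**Figure D5:**
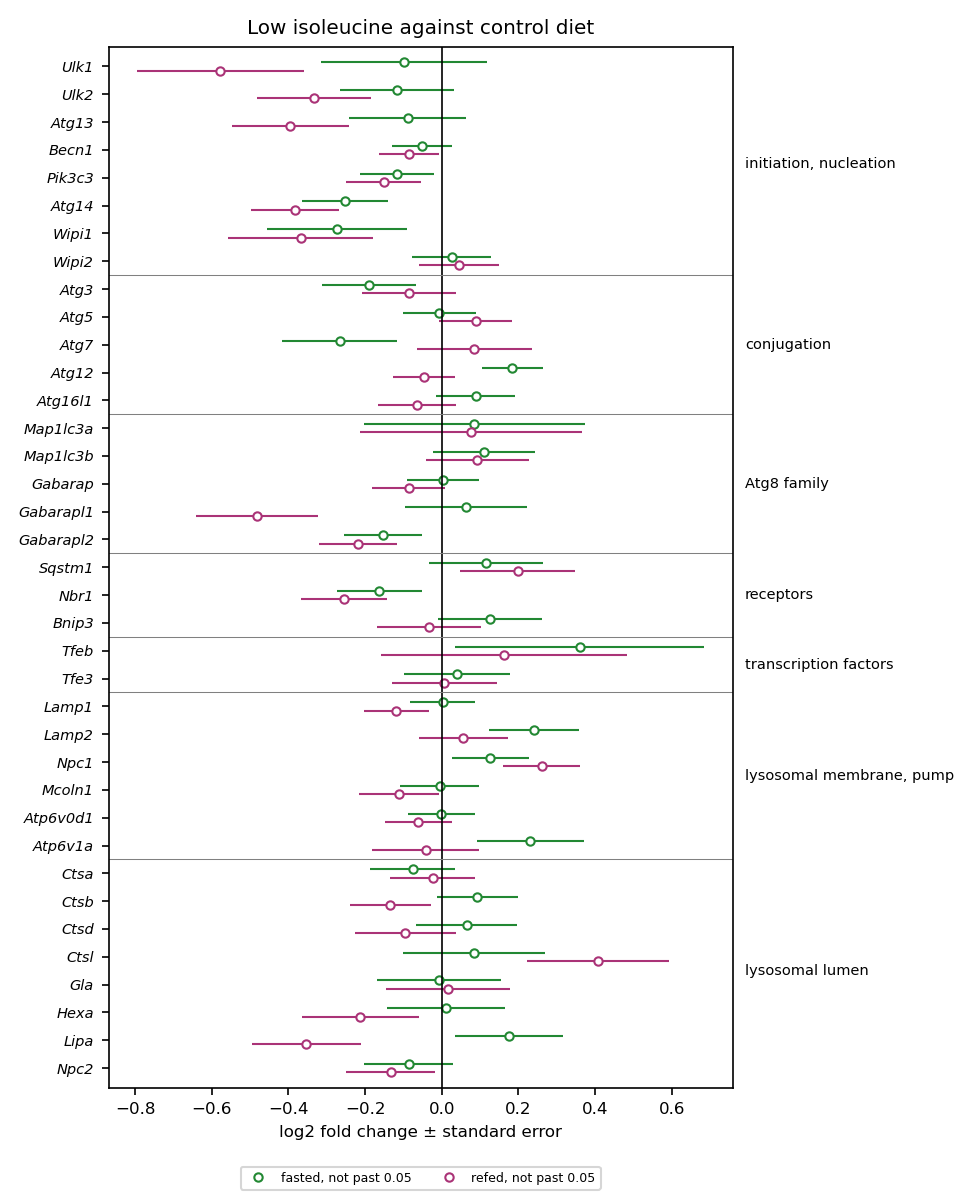
Log2 fold change of the low isoleucine against the control diet with its standard error (horizontal axis) for the 37 members by role, in fasted and in refed mice. Every point is open, since 0 members passed, and the values run from -0.58 for Ulk1 to 0.41 for Ctsl, both in refed mice.

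Other genes of the pathway were counted from lists written by function. In the averaged feeding comparison 9 of 28 further autophagy machinery genes (32.1%) fell and 2 rose, where 16.5% of all genes tested fell and 16.4% rose. They included Rb1cc1, the FIP200 scaffold of the ULK1 complex, which fell from 32.0 ± 3.44 to 20.9 ± 2.01 CPM on the control diet and from 32.8 ± 3.57 to 16.4 ± 2.67 CPM on the low isoleucine diet (SD, n = 4; averaged log2 difference -0.80, adjusted p = 3.49e-06). Stx17, a fusion protein of the autophagosome (-0.47, adjusted p = 0.000282), Wdr45 (-0.60, adjusted p = 0.000334) and Nrbf2 (-0.36, adjusted p = 0.000807) fell as well.

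Of 14 further receptors 7 fell and 1 rose. Calcoco1, a receptor for the endoplasmic reticulum, fell from 35.4 ± 2.56 to 10.2 ± 3.14 CPM on the control diet and from 30.0 ± 3.75 to 8.96 ± 1.17 CPM on the low isoleucine diet (SD, n = 4; averaged difference -1.77, adjusted p = 5.31e-08). Retreg1 (FAM134B), also a receptor for the endoplasmic reticulum, fell from 119 ± 41.8 to 27.9 ± 8.77 CPM and from 88.1 ± 14.5 to 33.6 ± 4.55 CPM (-1.74, adjusted p = 1.56e-06). The mitochondrial receptor Bnip3l fell by 0.87 (adjusted p = 7.10e-07) and the ubiquitin receptor Optn by 0.66 (adjusted p = 5.76e-06).

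Of 36 further lysosomal enzymes 5 fell (13.9%) and 2 rose (5.56%), neither share above that of all genes, with Arsa, arylsulfatase A, lower by 0.68 (adjusted p = 0.000357) and Ctsf by 0.37 (adjusted p = 0.000479), and Sgsh, a sulfamidase, higher by 0.48 (adjusted p = 0.00114). Of 19 further membrane genes tested 4 fell (21.1%, near the share of all genes) and 1 rose, with the sialic acid exporter Slc17a5 lower by 0.99 (adjusted p = 2.54e-06), Scarb2 by 0.53 (adjusted p = 9.91e-05) and Grn by 0.52 (adjusted p = 0.00131), and Mfsd8 higher by 0.47 (adjusted p = 0.00120). Of 14 further proton pump genes Atp6ap1 rose by 0.21 (adjusted p = 0.00485), and Atp6ap2 and Atp6v0a2 fell by 0.27 (adjusted p = 0.0129) and 0.19 (adjusted p = 0.0349). Their shares, 14.3% lower and 7.14% higher, were not above those of all genes (16.5% and 16.4%). The median averaged difference was -0.24 over the further receptors, -0.09 over the further machinery and the further enzymes, and 0.06 over the proton pump genes.

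Of 8 further transcription factor genes that act on autophagy genes 4 fell and 1 rose. The differences in these shares between lists were not tested. Ppara, the fatty acid sensor of the fasted liver, fell from 127 ± 30.6 to 51.0 ± 10.6 CPM on the control diet and from 131 ± 28.8 to 38.3 ± 7.68 CPM on the low isoleucine diet (SD, n = 4; averaged difference -1.54, adjusted p = 9.05e-07). Nr1h4, the bile acid receptor FXR, rose from 132 ± 20.3 to 177 ± 14.2 CPM and from 134 ± 19.7 to 229 ± 16.7 CPM (0.60, adjusted p = 8.88e-05). The insulin-controlled forkhead factors Foxo1 and Foxo3 fell by 0.83 (adjusted p = 2.50e-05) and 0.65 (adjusted p = 0.000737). Between diets the 119 further genes tested gave 1 call, in the averaged comparison. This was Sort1, a sorting receptor of the Golgi and endosomes, which was lower on the low isoleucine diet by 0.47 (SE 0.0966, adjusted p = 0.0200), at 9.29 ± 1.15 against 13.6 ± 1.25 CPM in fasted and 9.24 ± 0.574 against 12.1 ± 2.25 CPM in refed liver (SD, n = 4).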

How the data were processed

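The labels' protocols describe stranded, poly-A selected liver mRNA libraries, run over 3 lanes whose data were merged for each sample. The authors deposited RSEM expected counts per gene, of which 10.2% of values are not whole. No aligner, genome build or annotation is named (not given in the sources used here). Without roles, limma, edgeR and R 3.5.3 are listed by the submitters' processing notes. Per the file headers, the authors' tables for each diet comparison also hold p-values, an F score, log2 fold changes and log2 CPM.

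Rounded counts were fitted with edgeR 4.0.16 under R 4.3.3 (filterByExpr with a minimum count of 10 and a minimum total of 15, TMM, robust quasi-likelihood F test, 1 mean per group over the 16 libraries, Benjamini-Hochberg over 14920 genes, threshold 0.05). A standard error is the size of a log2 fold change over the root of its F value. Symbols were matched for 51633 of 51912 identifiers. The method was tested on simulated counts. The members and gene lists were chosen with earlier results of these data known. Values in every library are given for the 16 called members with the smallest adjusted p, and up to 4 called genes are named from each further list, of which 1 enzyme gene is not reported here. Differences rest on 4 libraries a group, whose spread is all that the p-values measure. The alternatives were other scalings (DESeq2 1.42.0 size factors, upper quartile, library size), other filters, the DESeq2 Wald test, limma-voom (limma 3.58.1), a non-robust fit, only the compared groups, the marks of the labels as a replicate block, and leaving out each library.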

Additional observations from a re-analysis of the deposited data

Results flagged for a closer look

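In 6 of the 148 groups of 4 libraries examined for the 37 members, 1 library lay far from the other 3, and chance gives about 1 in 20 groups. Atg12 was at 25.5 CPM in control refed library 3, the highest of its group, against 24.4 to 24.5 in the others, a gap that is small beside the level. Becn1 was at 47.6 CPM in control fasted library 2, the lowest of its group, against 50 to 50.2. Pik3c3 was at 16.6 CPM in control fasted library 4, again the lowest, against 18.3 to 18.5. Gla was at 4.95 CPM in control fasted library 2, the highest, against 3.87 to 4.02. Low isoleucine fasted library 1 was the lowest of its group in both Ctsd (214 CPM, against 287 to 294) and Map1lc3a (13.2 CPM, against 22.8 to 24.5). Of these genes Pik3c3 and Atg12 fell in the averaged feeding comparison, and both calls were kept with each library left out in turn.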

How the results depend on the processing

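No called member result changed direction under any alternative. The call was kept under all 25 alternatives for 14 of 17 results in the averaged feeding comparison, and under all 26 for 6 of 12 on the control and 11 of 14 on the low isoleucine diet. Library size alone, no low-count filter, the replicate block and only the compared groups each lost the control diet calls of Ulk1, Atg14 and Lamp2. Scaling by library size alone moved the median of all genes by 0.12, 0.11 and 0.12 in the control, low isoleucine and averaged feeding comparisons, and split the calls 1896 higher to 747 lower, 2094 to 1153 and 3649 to 1637, against 1329 to 1223, 1433 to 1761 and 2451 to 2464 with TMM. It gave 7 members lower on the control diet and 2 higher on the low isoleucine diet (Atg3 and Atg7). In the averaged comparison it gave 4 higher (Gabarap and Tfe3 beside Atg3 and Atg16l1). Without a low-count filter 0 members were higher on the control diet and 1 in the averaged comparison. A filter of at least 1 CPM in 4 libraries called 1 member lower in the averaged diet comparison, as did DESeq2. DESeq2 called 371, 179 and 603 genes in the fasted, refed and averaged diet comparisons and 35 in the interaction. Fitting only the compared groups gave 193 and 3 genes in the fasted and refed diet comparisons, 7 members lower on the control diet and 1 higher on the low isoleucine diet (Atg7). Leaving out 1 library gave 6 to 222, 3 to 89 and 115 to 473 genes in the fasted, refed and averaged diet comparisons and 0 to 1 in the interaction, 0 to 1 members higher on the control diet, 1 to 2 higher in the averaged feeding comparison, 0 to 1 higher in the refed and averaged diet comparisons, and 0 to 1 and 0 to 3 lower in these. Lower members numbered 8 to 11, 13 to 16 and 14 to 16 in the control, low isoleucine and averaged feeding comparisons. Whether the marks in the labels pair libraries was not tested. After the group means were taken out, 24 same-mark pairs between groups had r from -0.32 to 0.32 (median 0.03, 8 over 0.1). The 72 other-mark pairs had r from -0.43 to 0.39 (median -0.02, 18 over 0.1). With the replicate block 8 members were lower on the control diet, 14 on the low isoleucine and 15 in the averaged comparison, and 0 passed between diets. Of 216 member values that did not pass, 68 changed sign under at least 1 alternative. The cause of these shifts was not tested. Tfeb, the member with the lowest level per kilobase, had the largest standard error of the 37 in each comparison (0.326 on the control diet).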
